A study of Oryza sativa with 8 samples.

Results

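The strongest 500 chromosomal peaks of each ATAC-seq library were described in 2 rice cultivars, Nipponbare (Nip), of the japonica type, and 93-11, of the indica type. ATAC-seq uses the Tn5 transposase, which inserts sequencing adapters where chromatin is open, and a peak is a stretch with more insertions than the background. In each of the 8 peak lists the members were selected on the deposited value of a peak: the 500 peaks on chromosomes 1 to 12 with the highest value were kept, with ties broken by lower chromosome number and then by start. This gave 4000 of 243803 chromosomal peaks. Overlapping members were then merged within a cultivar, which gave 763 sites in Nip and 791 sites in 93-11, out of 49613 and 55591 merged regions when all chromosomal peaks were used. The value was read as a −log10 p (unadjusted), so a high value means a pileup of fragments that the background would rarely give.

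The tissue was the aerial part of 3-week-old seedlings. Seedlings of the heat stress (HS) groups were held at 45 °C for 36 h, in high humidity and under 60 to 80 μmol m-2 s-1 of light, and those of the Normal groups were not heated. Growth light was 800 μmol m-2 s-1, and the light given to Normal seedlings during those hours was not stated, so the effect of heat and that of the changed light and humidity cannot be told apart. The 4 groups (Nip HS, Nip Normal, 93-11 HS and 93-11 Normal) had 2 libraries each, and the study's methods call the replicates biological. Nothing in the peak lists allowed a check of the tissue against marker genes, since they carry no genes.

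Open chromatin in plants is found mostly at promoters and at distal regulatory elements, where transcription factors displace or exclude nucleosomes. The strongest peaks here are the chromosomal peaks whose pileup of fragments the background would be least likely to give. Heat stress in plants acts through heat shock transcription factors, which bind target promoters and raise the expression of chaperone genes. Sequences and gene names are not reported here, because no genome of the builds used in the lists was used. Positions are given as the lists have them, counted from 1, in the separate assemblies used for Nip and for 93-11. The build was not given in the sources used here, and positions were not compared between the cultivars.

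The lists held 36279 and 36743 chromosomal peaks in Nip HS and 31399 and 29542 in Nip Normal. They held 24940 and 22684 in 93-11 HS and 31584 and 30632 in 93-11 Normal. The 500 strongest were therefore 1.36% to 1.69% of a Nip list and 1.58% to 2.2% of a 93-11 list. Sequencing depth is unknown. In its place a background rate, the pileup of fragments that chance alone would give at a position, was recovered from the most frequent values of each list, and it moved with condition in both cultivars. It was 6.79 and 6.85 in Nip HS, against 5.31 and 5.21 in Nip Normal. It was 4.41 and 4.66 in 93-11 HS, against 6.11 and 6.67 in 93-11 Normal. A −log10 p grows with depth, so values were used to rank peaks within a list, and depth and condition cannot be told apart in comparisons of HS with Normal.

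Nip and 93-11 lists had differently shaped heads. In Nip the strongest peak had a value of 655 and 668 in HS and of 710 and 662 in Normal, and the second lay between 583 and 618 in the 4 lists. The third was already between 269 and 306, and the decline after it was shallow, to 180 and 189 at rank 50 in HS and 188 and 174 in Normal. Only the first 2 peaks of each Nip list had a value of at least 2 times that of rank 50. In 93-11 the strongest peak had a value of 10072 and 10212 in HS and of 8033 and 8535 in Normal. The head of the 93-11 lists was both higher and longer: 15 and 14 peaks in HS and 10 and 12 in Normal had at least 2 times the value of rank 50, which was 61.3 and 63.8 in HS and 113.1 and 112.8 in Normal.

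**Figure D1:**
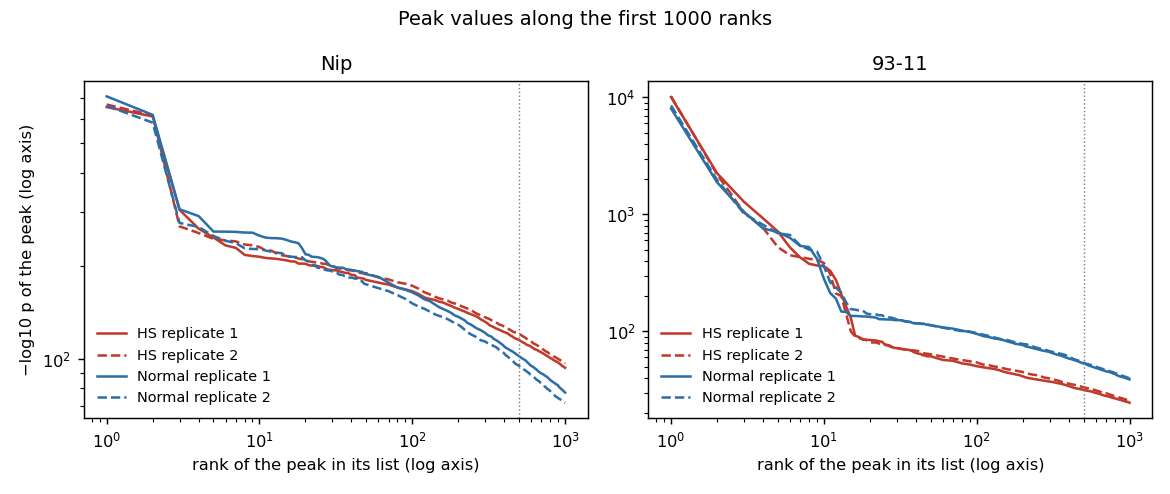
Value of each peak (−log10 p, log axis) against its rank in the list (log axis) for the first 1000 ranks, HS in red and Normal in blue, with a dotted line at rank 500. The 2 strongest Nip peaks lie between 583 and 710 and stand clear of the rest, and the 93-11 curves fall steeply, to values between 61.3 and 113.1 at rank 50, where they are separated by condition.

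The last peak inside the 500 had a value of 115.02 and 120.02 in Nip HS and of 101.70 and 94.78 in Nip Normal. The first peak outside had 115.01 and 119.98 in Nip HS and 101.58 and 94.59 in Nip Normal. In 93-11 the last peak inside had 31.63 and 33.42 in HS and 53.15 and 53.96 in Normal, and the first outside had 31.61 and 33.39 in HS and 53.07 and 53.94 in Normal. No value was tied at this boundary. The line thus runs through a smooth part of each list, and a site on either side of it can have almost the same value.

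The very first ranks were held by the same places in every library of a cultivar. In Nip the sites with the best mean rank over the 4 lists were on chromosome 10 at 20744185 to 20744684, which was rank 1 in all 4 lists, and on chromosome 9 at 4560259 to 4560786, which was rank 2 in all 4. The first had values of 655 and 668 in HS and 710 and 662 in Normal, with peaks of 500 and 471 bp in HS and 462 and 471 bp in Normal. The second had values of 611 and 616 in HS and 618 and 583 in Normal. After these came a narrow site on chromosome 1 at 33747930 to 33748189, with ranks 5 and 6 in HS and 4 and 3 in Normal, and a site on chromosome 10 at 11181899 to 11182753, with ranks 8 and 9 in HS and 7 and 8 in Normal. A site on chromosome 2 at 14110475 to 14110858 had ranks 12 and 20 in HS and 3 and 4 in Normal, so both HS ranks lay below both Normal ranks.

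In 93-11 the site on chromosome 11 at 5349731 to 5350399 was rank 1 and the site on chromosome 4 at 13839096 to 13840233 was rank 2 in all 4 lists. The second had values of 2249 and 2200 in HS and 1882 and 1970 in Normal. At this site HS replicate 1 had 2 peaks, of 580 bp at rank 2 and of 413 bp at rank 3 (value 1281), where the other libraries had 1 peak, of 1135 bp in HS replicate 2 and of 1130 and 1133 bp in Normal. It was the only site with 2 of the 500 peaks of a list, and it shifts the later ranks of that list down by 1. Both of the next sites lay on chromosome 5, at 14612975 to 14613599 and at 14597018 to 14597538. The first of these had ranks 4 and 3 in HS and 3 and 3 in Normal, and the second had ranks 5 and 4 in HS and 4 and 4 in Normal. The site on chromosome 8 at 23619701 to 23620157 had values of 428 and 431 in HS and of 707 and 690 in Normal, with ranks of 7 and 7 in HS and 5 and 5 in Normal.

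Sharing of the strongest peaks was counted over the 4 lists of a cultivar. Of the 763 Nip sites, 293 (38.4%) were in the top 500 of all 4 lists, 98 of 3 lists, 162 of 2 lists and 210 of 1 list. Of the 791 sites in 93-11, 277 (35.0%) were in all 4, 104 in 3, 169 in 2 and 241 in 1. Within the 4-list sites, 23 in Nip and 26 in 93-11 stayed within the first 50 ranks of every list, and 143 and 131 stayed within the first 250. The worst rank of a 4-list site was typically 2.44 times its best in Nip and 2.48 times in 93-11 (medians), so a stable membership went with a considerable reordering inside the 500.

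**Figure D2:**
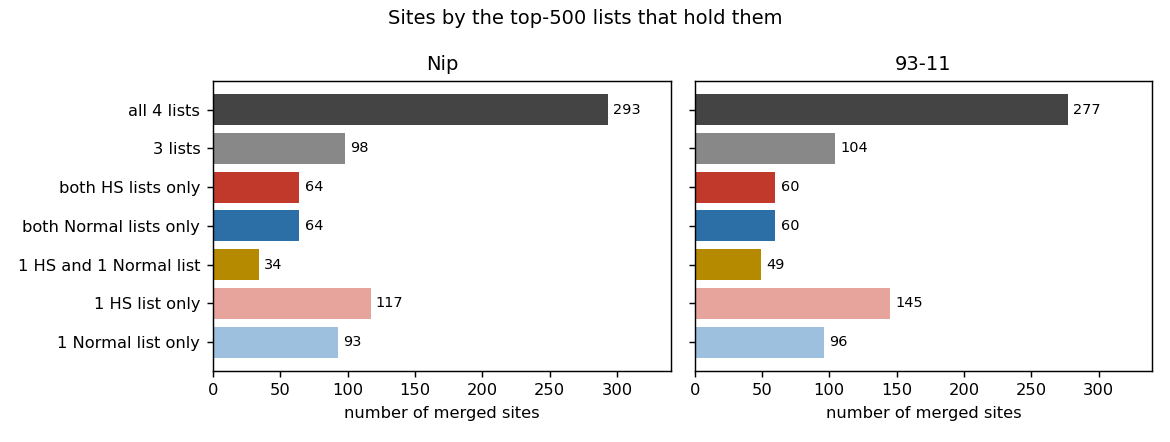
Number of merged sites (horizontal axis) by the top 500 lists that hold them, in Nip and in 93-11. The bar for all 4 lists is the longest in both cultivars (293 and 277 sites), and the bars for both HS lists only and both Normal lists only are equal (64 and 64 in Nip, 60 and 60 in 93-11).

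Libraries of 1 condition shared more of their strongest peaks than libraries of different conditions. In Nip the HS libraries shared 394 of 500 peaks with each other and the Normal libraries shared 418, whereas HS and Normal libraries shared 343 to 361. In percent, this was a mean of 81.2% within and 70.1% between conditions, a difference of 11.1 percentage points. In 93-11 a mean of 77.9% of peaks was shared within and 68.3% between conditions, a difference of 9.55 points. In this cultivar the Normal pair shared 414 peaks, while the HS pair shared 364.5 (the mean of both directions) and the HS and Normal libraries shared 340.5 to 342. These overlaps were computed from the ranks that chose the members and are descriptions with no test.

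A site outside the top 500 of a list was seldom absent from that list. The 763 Nip sites left 1052 places where a site was not among the 500 of a library. In 65.3% of these the library had a peak there at ranks 501 to 1000, in 27.9% at ranks 1001 to 2000 and in 6.75% beyond rank 2000, and in 0 was there no peak. For 93-11 there were 1165 such places, with 60.4% at ranks 501 to 1000, 26.5% at 1001 to 2000 and 12.9% beyond 2000, and in 2 of them there was no peak. Both of those belonged to 1 site, on chromosome 2 at 21441830 to 21442050, which is named here because of its values. It was rank 16 in 93-11 HS replicate 1 (value 92.0, width 221 bp), had no peak in HS replicate 2 or Normal replicate 1, and was rank 25535 in Normal replicate 2 (value 4.62). It was the only single-list site within the first 50 ranks of a list. Of the 241 single-list sites in 93-11, 26 were within the first 250 ranks of their list, against 6 of 210 in Nip.

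Sites were called entering when they were in the top 500 of both HS lists and of neither Normal list, and leaving in the opposite case. There were 64 entering and 64 leaving sites in Nip (8.39% of sites each) and 60 entering and 60 leaving sites in 93-11 (7.59% each). Lists of equal length tend to balance these counts, and they follow from the rule itself, so nothing is read from their size or equality. Every entering site had a peak in both Normal lists and every leaving site had a peak in both HS lists, in both cultivars. Thus in none of these sites was a strong peak present in 1 condition and no peak called in the other. The rank in the other condition was often not far below the line: for entering sites the median ranks in the Normal lists were 971.5 and 886 in Nip and 970 and 944 in 93-11, and for leaving sites the median ranks in the HS lists were 947 and 811 in Nip and 767.5 and 752 in 93-11.

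A smaller number crossed by a wide margin. Of the entering sites, 20 of 64 in Nip and 18 of 60 in 93-11 were outside the first 1000 ranks of both Normal lists, and 5 and 5 were outside the first 2000. Of the leaving sites, 16 of 64 in Nip and 6 of 60 in 93-11 were outside the first 1000 ranks of both HS lists, and 0 and 4 outside the first 2000. On chromosome 10 there were 0 entering sites among 37 sites in Nip and 42 in 93-11. On chromosome 12 there were 0 among 40 in Nip and 1 among 40 in 93-11. Chromosome 11 had 3 among 40 in Nip and 1 among 33 in 93-11. These are given because of their values. Entering sites were 8.39% of all Nip sites and 7.59% of all 93-11 sites, so small counts are not read as a trait of a chromosome. Leaving sites lay on all 12 chromosomes in both.

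**Figure D3:**
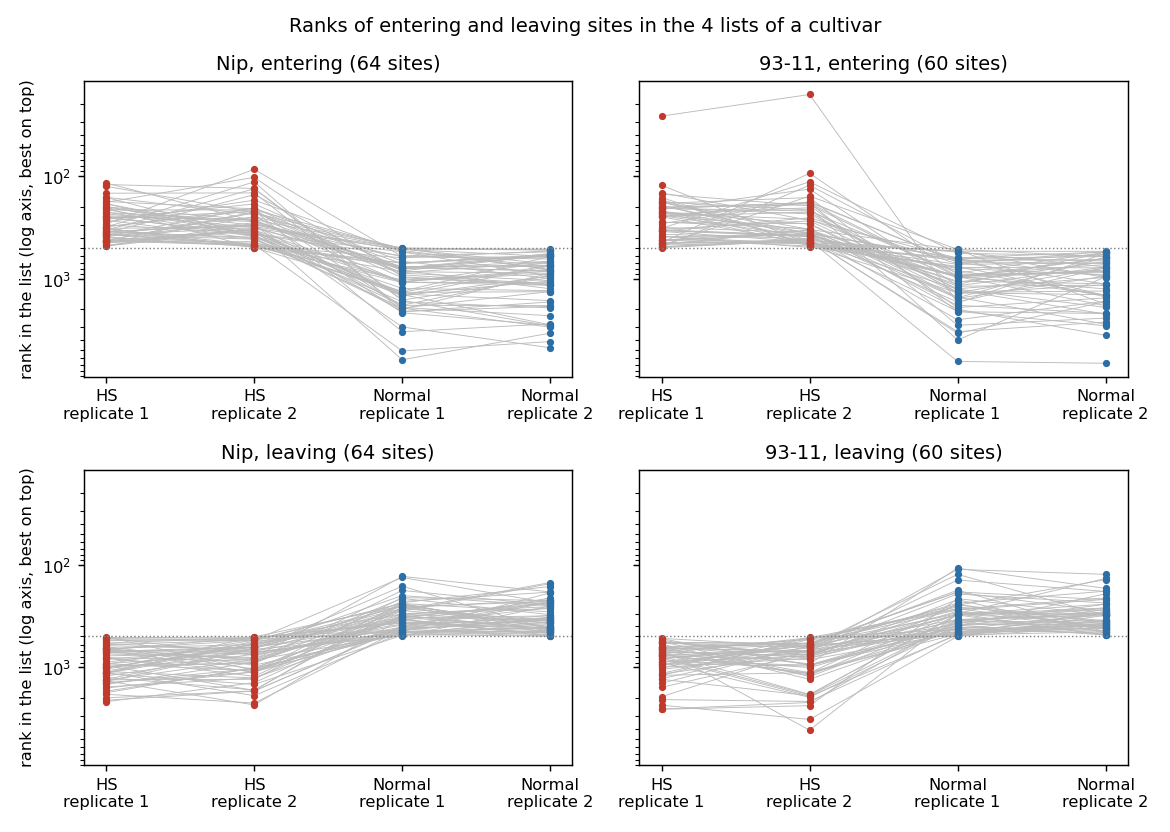
Rank (log axis, best on top) of each entering site and each leaving site in the 4 lists of its cultivar, HS in red and Normal in blue, with 1 grey line per site and a dotted line at rank 500. Most lines cross the dotted line at a shallow angle, and a few drop much further, such as to ranks 6434 and 6707 for the lowest entering site of 93-11.

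The entering Nip sites with the largest difference in mean rank lay on chromosomes 1, 5 and 7. The site on chromosome 1 at 35240086 to 35240658 had ranks 452 and 328 in HS and 6205 and 3406 in Normal, with values of 118.1 and 133.8 in HS and 27.2 and 38.4 in Normal. Its peak was nearly as wide in both conditions, at 559 and 573 bp in HS and 522 and 466 bp in Normal. Also on chromosome 1, the site at 24073165 to 24073903 had ranks 418 and 465 in HS and 5083 and 4119 in Normal, and the site at 29246700 to 29247556 had ranks 147 and 146 in HS and 1945 and 2980 in Normal. The site on chromosome 7 at 20791055 to 20791808 had ranks 205 and 303 in HS and 2968 and 4732 in Normal. The site on chromosome 5 at 23503654 to 23504631 was the widest of these, at 974 and 967 bp in HS and 770 and 679 bp in Normal, with ranks 312 and 217 in HS and 3304 and 2769 in Normal. In all 5 the lowest HS value was more than 2 times the highest Normal value. These sites were picked by their rank difference, and the background rates of the lists differ, so this ratio only describes them.

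Compared with the named entering sites of Nip, the named leaving sites moved fewer ranks. The one with the largest difference, on chromosome 10 at 18788643 to 18789331, had ranks 2097 and 1709 in HS and 400 and 210 in Normal, with values of 69.7 and 78.5 in HS and 109.5 and 126.7 in Normal. Next came a site on chromosome 8 at 6913647 to 6914205, with ranks 1835 and 2235 in HS and 425 and 486 in Normal. The other 3 lay on chromosome 6, at 15571814 to 15572901, 30415071 to 30416460 and 19642597 to 19643333, with HS ranks between 1358 and 2331 and Normal ranks between 313 and 421. The middle one of these was a wide site that kept its width: its peaks were 1315 and 1303 bp in HS and 1381 and 1390 bp in Normal. At the last, the peaks were wider in HS, at 947 and 1049 bp against 718 and 687 bp in Normal, although their values were lower.

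In 93-11 the entering site with the largest difference was on chromosome 7 at 2748951 to 2749496. It had ranks 193 and 422 in HS and 6434 and 6707 in Normal, and values of 42.0 and 35.2 in HS and 13.3 and 13.2 in Normal. The site on chromosome 2 at 21945371 to 21945983 had ranks 209 and 181 in HS and 2857 and 2431 in Normal, and the site on chromosome 4 at 35377912 to 35378768 had ranks 241 and 334 in HS and 1993 and 3575 in Normal. A site on chromosome 1 at 40886588 to 40886918 had ranks 455 and 416 in HS and 3295 and 2658 in Normal. The last, a narrow site on chromosome 1 at 18092052 to 18092215, rested on less agreement between the Normal libraries, with ranks 236 and 204 in HS and 3976 and 962 in Normal. The entering site with the best rank, named here because of it, was also narrow: it lay on chromosome 2 at 719086 to 719281, with ranks 26 and 16 in HS and 1721 and 569 in Normal and values of 76.7 and 90.9 in HS and 29.6 and 51.5 in Normal.

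The leaving site of 93-11 with the largest difference, on chromosome 8 at 5178383 to 5179145, had ranks 2344 and 3228 in HS and 500 and 311 in Normal, so it stood at the very edge of the 500 in 1 Normal list. Its values were 16.4 and 14.4 in HS and 53.2 and 66.8 in Normal. The site on chromosome 4 at 31775237 to 31775974 was further inside, with ranks 2569 and 2370 in HS and 214 and 308 in Normal. Sites on chromosome 5 at 10377648 to 10378044 and on chromosome 1 at 10753454 to 10753997 had HS ranks between 2067 and 2559 and Normal ranks between 346 and 473. The HS libraries disagreed at the site on chromosome 9 at 3993404 to 3993974, which was rank 669 and 4108 in HS and 300 and 487 in Normal.

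A move across the line was not always a move of the value in the same direction. In Nip the values at rank 500 were higher in HS than in Normal, so an entering site had by construction to have higher values in both HS lists, and in 93-11, where they were lower, a leaving site had to have lower ones. The other cases were not fixed in this way. Of the 60 entering sites of 93-11, 17 had higher values in both HS lists than in both Normal lists, and 17 others had lower values in both HS lists while ranking higher. Of the 64 leaving sites of Nip, 36 had lower values in both HS lists and 1 had higher ones. These counts stand against a general shift of the values. Of the 277 sites in all 4 lists of 93-11, 265 had lower values in both HS lists and 5 had higher ones. Of the 293 such sites in Nip, 36 had lower values and 120 had higher ones. The background rate moved the same way, being higher in HS than in Normal in Nip and lower in HS than in Normal in 93-11, and its part in these counts was not tested.

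The values were therefore also put on a scale of fold over background, which is the pileup implied by a value divided by the background rate of the list. This scale was chosen after the values had been seen, and it understates peaks that were scored against a higher local background. At rank 500 the fold was 19 and 19.5 in Nip HS and 20.7 and 19.9 in Nip Normal, and 10.6 and 10.6 in 93-11 HS and 12.1 and 11.6 in 93-11 Normal. The difference between HS and Normal at the line, which had opposite directions in the 2 cultivars on the −log10 p scale, thus had the same direction in both on the fold scale. For entering sites the median fold was 21.0 in HS and 17.0 in Normal in Nip, and 11.9 in HS and 9.81 in Normal in 93-11. For leaving sites it was 17.4 in HS and 22.5 in Normal in Nip, and 9.48 in HS and 13.4 in Normal in 93-11. The fold was higher in both HS lists at 58 of 64 entering sites in Nip and 45 of 60 in 93-11. That direction was not fixed, but the rule made it likely, because the value behind the fold also chose these sites. The counts are therefore a description and no separate evidence. For leaving sites the direction on this scale is fixed by the rule, since the folds at rank 500 were lower in HS than in Normal in both cultivars. The entering site on chromosome 7 of 93-11 at 2748951 had folds of 12.8 and 11.0 in HS and 5.17 and 4.94 in Normal, and the entering site on chromosome 1 of Nip at 35240086 had folds of 19.4 and 21.0 in HS and 8.59 and 10.8 in Normal.

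On the fold scale the 4-list sites also tended to the lower side in HS: 204 of 293 in Nip and 191 of 277 in 93-11 were lower in both HS lists than in both Normal lists, and 8 and 9 were higher. Among all regions with a peak in all 4 lists, 21.3% of 20632 in Nip and 30.1% of 9501 in 93-11 were lower in this sense, and 40.8% and 26.1% were higher. These shares cannot be read as independent of the choice of sites, because the value from which the fold was computed is the one that selected them. Of the 5 sites of 93-11 with the best mean rank, most had a higher fold in both HS lists. At rank 50 of the 93-11 lists the fold averaged 16.4 in HS and 19.6 in Normal. The strongest 93-11 site had folds of 905 and 873 in HS and of 566 and 554 in Normal. The next, on chromosome 4, had 258 and 242 in HS and 171 and 165 in Normal. Both named chromosome 5 sites were also higher in both HS lists. The named chromosome 8 site was lower, with 68.5 and 65.9 in HS and 78.5 and 72.0 in Normal.

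Rank moves were also set beside those of weaker peaks. A rank percentile was higher in both HS lists than in both Normal lists at 283 of 763 Nip sites (37.1%), against 39.3% of all Nip regions with a peak in all 4 lists, and lower at 177 (23.2%), against 21.7%. In 93-11, where 790 of 791 sites had a peak in all 4 lists, it was higher at 139 (17.6%), against 18.7% of all such regions, and lower at 324 (41.0%), against 36.1%. A percentile moves with the length of a list. With ranks taken again among the regions that had a peak in all 4 lists, 30.0% of the Nip sites were higher and 32.0% lower, against 28.7% and 31.1% of all such regions. The same ranks were higher at 25.7% and lower at 28.7% of the 93-11 sites, against 25.7% and 26.2% of all such regions. The direction of the imbalance therefore turned over in Nip between the scales, and under either scale the shares of the sites lay close to those of all regions, the largest gap being the 41.0% against 36.1% in 93-11.

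Width was not used to choose the members. The strongest peaks were wider than the others in every list, at a median of 728.5 and 759 bp in Nip HS, against 401 and 398 bp in the rest of the same lists, and of 680.5 and 686 bp in Nip Normal, against 341 and 350 bp in the rest. In 93-11 the medians were 525.5 and 532.5 bp in HS, against 230 and 235 bp in the rest, and 623 and 622.5 bp in Normal, against 260 and 269 bp. Width and value come from the same calling step and are not independent of each other.

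The 500 strongest peaks were wider in HS than in Normal in Nip and narrower in HS than in Normal in 93-11. In Nip the median width averaged 743.8 ± 21.6 bp in HS and 683.3 ± 3.9 bp in Normal (SD, n = 2 each), a difference of 60.5 bp, or 0.12 on the log2 scale. In 93-11 it averaged 529.0 ± 4.9 bp in HS and 622.8 ± 0.35 bp in Normal (SD, n = 2 each), a difference of -93.75 bp, or -0.24 on the log2 scale. The groups did not overlap in either cultivar, and the exact permutation p was 0.333 in each, the smallest that 2 libraries against 2 can give. Between the cultivars, the log2 change of the median width differed by 0.36 (Nip minus 93-11), with an exact permutation p of 0.0556, again the smallest that this design allows.

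Peaks of at least 1 kb showed the same order. There were 68 and 74 of them in the 500 of Nip HS and 59 and 56 in Nip Normal, and 15 and 17 in 93-11 HS and 27 and 39 in 93-11 Normal. Their share was 2.7 points higher in HS than in Normal in Nip and 3.4 points lower in HS in 93-11 (exact permutation p 0.333 each, n = 2 each).

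The width difference was not particular to the strongest peaks. In the rest of the lists the median also differed, by 54 bp in Nip and by -32 bp in 93-11 (HS minus Normal), and in successive groups of 500 peaks down to rank 5000 the curves of HS and Normal kept apart in both cultivars. At matched places the order held too. Of the 293 sites in all 4 Nip lists, 141 had wider peaks in both HS lists than in both Normal lists and 19 narrower ones, with medians of 747 and 763 bp in HS and 702 and 715 bp in Normal. Of the 277 such sites in 93-11, 5 were wider and 149 narrower, with medians of 565 and 562 bp in HS and 646 and 648 bp in Normal. Over all 763 Nip sites 46.0% were wider and 9.31% narrower in HS, against 43.8% and 9.65% of all Nip regions with a peak in all 4 lists. Over 790 sites of 93-11 5.32% were wider and 53.3% narrower, against 8.79% and 47.5% of such regions. The background rate moved with width in the same direction in both cultivars, and its part in the width was not tested.

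**Figure D4:**
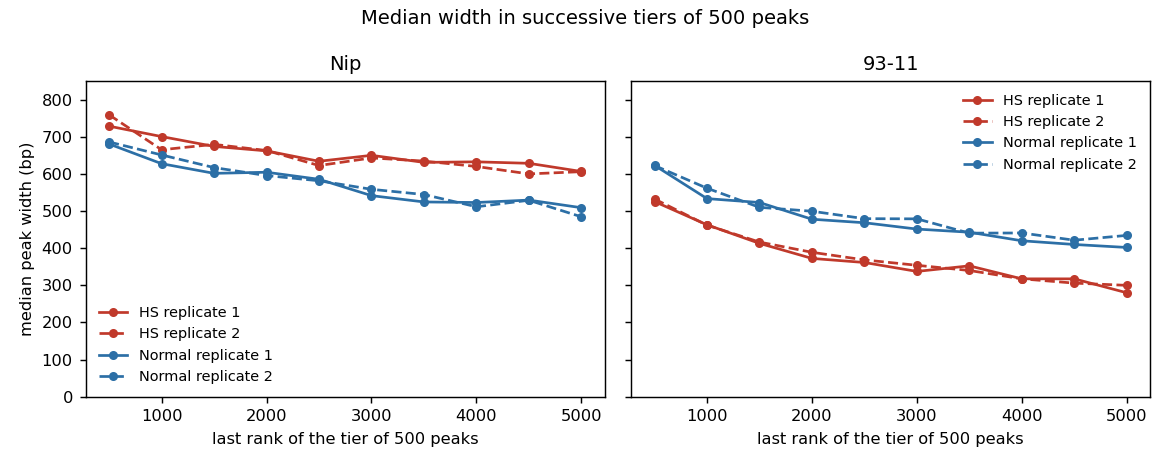
Median peak width (bp) in successive tiers of 500 peaks, from ranks 1 to 500 up to rank 5000, with HS in red and Normal in blue and 1 line per library. The last tier is narrower than the first in all 8 lists, HS lines lie above Normal lines in Nip, and HS lines lie below Normal lines in 93-11.

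The widest 4-list sites were 2159 bp on chromosome 10 at 3659694 to 3661852, 2105 bp on chromosome 1 at 10644847 to 10646951 and 1668 bp on chromosome 4 at 23176107 to 23177774 in Nip. These are merged extents, and some lists had 2 or 3 peaks inside them, so the widths given are those of the strongest peak of a list: at the first they were 1559 and 1511 bp in HS and 2030 and 1351 bp in Normal. At the site on chromosome 4 the strongest peak was 1640 and 1636 bp in HS and 873 and 879 bp in Normal. This peak had ranks of 170 and 220 in HS and 121 and 151 in Normal. In the Normal lists a separate weak peak of 528 and 520 bp lay beside it, at ranks 17204 and 18976. In 93-11 the widest were 1664 bp on chromosome 6 at 2653372 to 2655035, 1583 bp on chromosome 2 at 5578776 to 5580358 and 1583 bp on chromosome 6 at 26891593 to 26893175. The first of these had strongest peaks of 495 and 504 bp in HS and 1097 and 1576 bp in Normal. The widest peak of a whole list was outside the top 500 in all 4 Nip lists, at ranks 3296 to 5810, and in both 93-11 HS lists, at ranks 902 and 596, and inside it in the 93-11 Normal lists, at ranks 310 and 274.

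In 93-11 the median peak width was 611 bp for sites in all 4 lists, 547.5 bp in 3, 536 bp in 2 and 476 bp in 1. The single-list sites differed by condition. The 145 sites of 1 HS list had medians of 425 and 433.5 bp in replicates 1 and 2. The 96 sites of 1 Normal list had medians of 585 and 549 bp. Number of lists and condition are therefore mixed in this order. In Nip the 4-list sites had a median of 737.5 bp, and the others lay between 689 and 696 bp.

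The strongest peaks were unevenly spread over the chromosomes relative to all peaks. Chromosome 3 held 16.2% and 14.8% of the 500 in the Nip HS libraries and 13% and 13.4% in Nip Normal, and 14.0% and 14.6% in 93-11 HS and 13% and 12.8% in 93-11 Normal. Its share of the whole lists was 12.1% to 12.6% in Nip and 11.4% to 12.2% in 93-11. The mean difference was 1.86 percentage points, and it was positive in 8 of 8 libraries. Chromosome 1 was also above its share in 8 of 8 libraries (1.65 points on average), though by 0.097 points in 93-11 HS replicate 1, and chromosome 7 was below its share in 8 of 8 (-1.40 points).

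Each of these 3 differences had an exact two-sided sign-flip permutation p of 0.00781 over 8 libraries, the smallest possible, and an adjusted p of 0.0313 (Benjamini-Hochberg over 12 chromosomes). Chromosomes 4, 6, 8, 9 and 11 were lower on average and had an adjusted p of 0.0703 by the same permutation test, and chromosomes 2, 5, 10 and 12 had adjusted values of 0.0938 to 0.234. The libraries of a cultivar share most of their sites and are not independent draws of sites, so p measures the agreement of libraries only. With 4 libraries of 1 cultivar the test cannot go below 0.125. With 7 libraries the 3 chromosomes cannot pass unless others also agree: the number past 0.05 was 0 without Nip HS replicate 1, Nip HS replicate 2, 93-11 HS replicate 1, 93-11 Normal replicate 1 or 93-11 Normal replicate 2, was 5 without Nip Normal replicate 1, and was 4 without Nip Normal replicate 2 or 93-11 HS replicate 2.

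**Figure D5:**
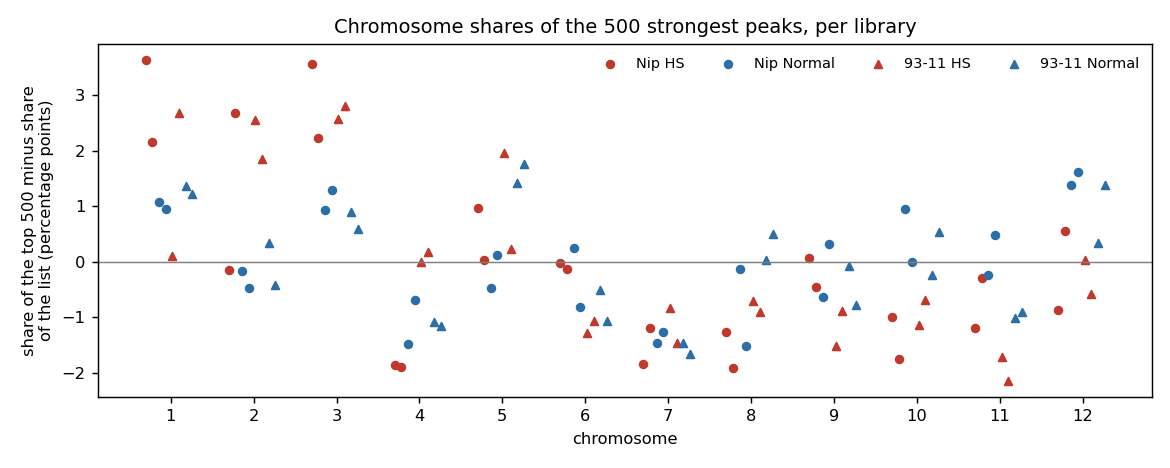
Share of the 500 strongest peaks minus share of all chromosomal peaks of the list (percentage points), per chromosome and library, with HS in red, Normal in blue, circles for Nip and triangles for 93-11. All 8 points lie above 0 on chromosomes 1 and 3 and below 0 on chromosome 7.

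The share of the strongest peaks towards chromosome ends was also compared with that of all peaks, a measure chosen after its values had been seen. The outer 20% at either end of the chromosomes, measured along the span reached by peaks with both ends summed, held 50.6% and 50.2% of the 500 in Nip HS and 48.2% and 47.4% in Nip Normal, against 46.2% to 47.6% of all peaks in the 4 lists. They held 53.8% and 54.0% in 93-11 HS and 51.4% and 51.4% in 93-11 Normal, against 42.9% to 44.8% of all peaks. The excess was 2.12 points on average in Nip and 8.84 points in 93-11, and the 2 cultivars did not overlap in it (at most 3.07 points in Nip and at least 6.59 in 93-11). The ends differed. At the end with the lowest positions the excess was 3.17 to 4.85 points in 93-11, whereas in Nip it was 0.31 and 0.96 points in HS and 0.26 and -0.38 points in Normal. At the end with the highest positions it was 3.31 to 6.92 points in 93-11 and 1.19 to 2.75 points in Nip. These are given as a description. Permutation tests of the excess were run, but they are not used here because the measure was chosen after its values had been seen.

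Few of the strongest peaks were close neighbours. The share of the 500 with another of the 500 within 10 kb was 2.8% and 4.0% in Nip HS and 3.6% and 4.4% in Nip Normal, and 6.6% and 5.2% in 93-11 HS and 6.2% and 6.8% in 93-11 Normal. It averaged 3.4 ± 0.85% in HS and 4.0 ± 0.57% in Normal in Nip, and 5.9 ± 0.99% in HS and 6.5 ± 0.42% in Normal in 93-11 (SD, n = 2 each). HS and Normal overlapped in both cultivars, with an exact permutation p of 0.667 in each, and HS minus Normal was -0.6 points in both. Against the next 500 peaks the share was 0.6 points higher on average (exact sign-flip permutation p 0.375), but the lists went different ways. It was higher in the 500 than in the next 500 in both 93-11 Normal lists, at 6.2% and 6.8% against 3.6% and 3.6%, and lower in Nip Normal replicate 1, at 3.6% against 5.6%, and in 93-11 HS replicate 1, at 6.6% against 7.6%. In 93-11 Normal replicate 2 no later group of 500 was above 5.4%, and over all lists the later groups lay between 1.6% and 8.0%. With 250 peaks per list the difference from the next 250 was 1.6 points, with an exact sign-flip permutation p of 0.0156. It was -0.53 points with 1000 peaks per list and -0.43 points for neighbours within 5 kb, neither past 0.05. Libraries of a cultivar share most of their sites, so these sign-flip tests measure the agreement of libraries only. For example, 4 neighbouring sites at the start of chromosome 10 were within the first 250 ranks of every 93-11 list.

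Runs were formed by joining sites with gaps of up to 50 kb. In Nip 13 runs held at least 3 sites, 40 of 763 sites (5.24%), and the largest held 4, on chromosome 2 at 22097683 to 22196550. It had 2 sites that were in all 4 lists. The one at 22175487 to 22176079 had ranks 25 and 79 in HS and 8 and 26 in Normal, and the one at 22195829 to 22196550 had ranks 172 and 194 in HS and 297 and 180 in Normal. In 93-11 there were 19 such runs with 60 of 791 sites (7.59%). Runs were not formed for weaker peaks, so they are not read as a trait of the strongest. The share of a library's 500 with another of them within 50 kb was 15.8% to 19% in Nip, against 15.6% to 19.4% in the next 500. In 93-11 it was 19.8% to 23.2%, against 15.2% to 24.2%.

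The largest 93-11 run was of another kind. It held 5 sites in 8.5 kb at the start of chromosome 10, at 8235 to 16736, and 4 of the 5 were in all 4 lists. The site at 11633 to 12598 had ranks 9 and 6 in HS and 9 and 9 in Normal, with values of 366 and 448 in HS and 419 and 483 in Normal. The site at 13556 to 14796 had ranks 11 and 10 in HS and 8 and 8 in Normal, and the site at 12831 to 13150, which lay between them, had ranks 13 and 12 in HS and 10 and 11 in Normal. A short site at 16543 to 16736 had ranks 15 and 14 in HS and 73 and 54 in Normal. Several of the highest peaks of the 93-11 lists thus came from this stretch. The next run, on chromosome 3 at 1247184 to 1344633, had 4 sites in 97.5 kb, of which 2 were in all 4 lists and 1 was entering.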

How the data were processed

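The deposited files are peak lists called for each library separately, with a position, a name and 1 value for each peak. The value deposited by the authors was read as a −log10 p; the column has no header and the unit was inferred from the values. The submitters' processing notes name BWA 0.7.10-r789, SAMtools 0.1.19, deepTools 2.0 and MACS2 2.1.1, while the study's methods name Bowtie2 for alignment; which applied was not settled. Whether reads were shifted for the Tn5 offset was not stated. Organelle reads and PCR duplicates were removed, according to the methods.

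Peaks on chromosomes 1 to 12 were ranked by value in Python 3.11.15 with NumPy 2.4.6, pandas 2.3.3 and SciPy 1.17.1. Overlaps of at least 1 bp were merged. The background rate was the Poisson rate whose tails best matched the 12 most frequent values of a list. Groups came from the sample titles. Tests were exact permutations of libraries, checked on small sets of fixed numbers. The merging and the calls of entering and leaving sites were checked on simulated lists. The sites named were the 5 with the best mean rank and the 3 widest in all 4 lists, up to 5 entering and 5 leaving with the largest difference in mean rank, and the longest runs; others are marked. Members, measures and lists were chosen with earlier results of these data known. Alternatives are in the closing section. Gene annotation was not used here, and peaks outside the 12 chromosomes enter no comparison.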

Additional observations from a re-analysis of the deposited data

Results flagged for a closer look

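The median width of the 500 strongest peaks moved in opposite directions in the 2 cultivars in every library: the log2 ratio of HS to Normal differed by 0.36 (Nip minus 93-11; exact permutation p 0.0556, the smallest possible). The percent of the 500 peaks that were at least 1 kb wide also did, and the change differed by 6.1 points (Nip minus 93-11; exact permutation p 0.0556). Neither passes 0.05.

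Peaks on sequences outside the 12 chromosomes enter no comparison above, yet many had values at or above that of rank 500 of their list. There were 68 and 67 in Nip HS and 74 and 72 in Nip Normal, which was 24.0% to 27.4% of the 268 to 279 such peaks in a list. There were 138 and 134 in 93-11 HS and 104 and 99 in 93-11 Normal, or 22.0% to 31.9% of the 420 to 473. By the choice of members, 1.36% to 2.2% of chromosomal peaks reached that value.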

How the results depend on the processing

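Depth is unknown, and values and widths moved with the background rate. Of 177 alternative values, 134 kept their direction and side of the threshold, or, for shares and counts, stayed within 1.5 times. This count is not a measure of robustness. For HS against Normal in width and clustered share, and for its difference between cultivars, no setting could pass 0.05, so only the direction could change. Merging across gaps of up to 100 bp, reversing ties or requiring 50% overlap left the shares as they were. Taking the strongest 2% of each list made entering sites 13.1% and leaving sites 5.44% of Nip sites, and 4.40% and 13.5% of 93-11 sites, because the lists then differ in length. A common threshold within a cultivar gave 19.4% entering and 1.82% leaving in Nip and 0.173% and 51% in 93-11, where 10.2% of sites were then in all 4 lists and the excess sharing within conditions was 45.4 points. With 250 peaks that excess was 5.70 points in 93-11. Requiring absence from the first 1000 ranks of the other condition left 2.62% entering and 2.1% leaving in Nip and 2.28% and 0.759% in 93-11. The number of chromosomes past 0.05 was 5 with 250 peaks, 7 with 1000 and 5 with the strongest 2%, and 0 to 5 with 1 library left out. The clustered share, HS minus Normal, turned to 2.5 points (1000 peaks) and 0.1 points (5 kb) in 93-11 and to 0.64 points (strongest 2%) in Nip, and ranged from -1.3 to 0.1 points in 93-11 with 1 library left out. Against the next peaks it was 1.6 points with 250 peaks, -0.53 with 1000 and -0.43 within 5 kb. The cause of these was not tested. With 1 library left out, entering sites were 10.8% to 17.7% in Nip and 9.83% to 18.5% in 93-11, and leaving sites 12.7% to 16.0% in Nip and 13.6% to 14.5% in 93-11, since 1 list then stands for a condition. Leaving out the sites of the 50 strongest peaks, chosen after seeing the data, left 30.5% of Nip and 27.6% of 93-11 sites in all 4 lists.

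Same-numbered libraries did not deviate together (correlation 0.0088 in Nip and -0.0068 in 93-11), so the numbers were not taken as pairs. With a replicate block the width differences were 60.5 bp in Nip and -93.75 bp in 93-11 (exact permutation p 0.5 each, the smallest possible). Their log2 difference was 0.36 (exact permutation p 0.125). The clustered share differed by -0.6 points in each, with 0 between the cultivars. None of these tests could pass 0.05 with so few libraries, so no call could change. Each cultivar alone could not pass the chromosome test.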
